A study of Homo sapiens with 6 samples.

Results

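The 10 genes described here lie on the distal long arm of chromosome 3, from MECOM at 3q26 to TP63 at 3q28, a stretch often gained in squamous carcinoma. They were taken by name from a count table of 38167 genes: PIK3CA, PRKCI, SOX2, TP63, MECOM, SKIL, DCUN1D1 and FXR1, which encode proteins, and SOX2-OT and TERC, which do not. The RNA came from small vesicles that Cal27 cells, an established squamous carcinoma line, shed into their culture medium as spheroids. The soft group was embedded in 3 mg/mL and the stiff group in 12 mg/mL of Matrigel (reconstituted basement membrane), and both were sampled at day 14. Each group had 3 libraries, which the labels call biological replicates without saying how the cultures were kept apart, so p-values measure the spread between these libraries. Both groups came from the same single cell line, no other agent is named for either, and no library of the cells themselves was analysed here.

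Several of these genes act in squamous epithelium. SOX2 is a transcription factor of stem cells and of the foregut lining, and TP63 encodes p63, the transcription factor that keeps the basal layer of stratified epithelium. PIK3CA encodes the p110-alpha catalytic subunit of phosphoinositide 3-kinase, which passes growth factor signals to AKT, and PRKCI encodes the atypical protein kinase C iota of the cell polarity complex. MECOM encodes a zinc-finger transcription factor, SKIL encodes SnoN, which represses SMAD proteins downstream of TGF-beta, DCUN1D1 helps attach NEDD8 to cullins, and FXR1 is an RNA-binding relative of the fragile X protein. TERC is the RNA template of telomerase, and SOX2-OT is a long non-coding RNA transcribed across the SOX2 gene.

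Base composition differed widely among these genes, and the sequences of 3 of them are printed to show it. TERC, SOX2 and PIK3CA had 66.7%, 50.7% and 34.8% G and C in their longest GENCODE transcript. In the first 150 bases of TERC the capitals mark CTAACCCTAAC, the template that telomerase copies into telomere repeats, at bases 46 to 56 from the 5′ end (searched on the sense strand; 0.00576% of 52112 transcript starts of the same length hold these letters). In the first 150 bases of the coding sequences of SOX2 and PIK3CA the capitals mark runs of at least 4 G or C letters, of which SOX2 has 6 and PIK3CA 2. These 3 stretches are 62.7%, 67.3% and 42.7% G and C.
TERC: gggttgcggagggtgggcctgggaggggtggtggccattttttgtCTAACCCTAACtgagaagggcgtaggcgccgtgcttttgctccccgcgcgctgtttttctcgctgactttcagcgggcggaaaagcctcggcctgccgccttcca
SOX2: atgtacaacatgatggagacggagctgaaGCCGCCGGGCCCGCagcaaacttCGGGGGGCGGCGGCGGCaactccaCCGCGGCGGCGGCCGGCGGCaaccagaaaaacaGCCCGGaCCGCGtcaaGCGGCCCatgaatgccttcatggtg
PIK3CA: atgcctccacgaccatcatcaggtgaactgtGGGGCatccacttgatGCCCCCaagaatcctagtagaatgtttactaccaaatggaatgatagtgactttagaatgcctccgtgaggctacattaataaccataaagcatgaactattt

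Libraries held 2445498 to 2977837 counts. All 10 genes were seen in all 6 libraries, at 13 to 167 counts, or 40 to 167 leaving out TERC. Being seen did not set them apart, since each library held counts for 37213 to 37366 of the 38167 genes. Together they took 0.0408% to 0.0424% of counts in soft and 0.0312% to 0.0339% in stiff libraries. Ribosomal RNA genes took 2.97% to 8.87% of counts in soft and 20.02% to 22.9% in stiff libraries, and mitochondrial messenger genes 1.48% to 1.81% in soft and 0.162% to 0.201% in stiff. The part of either in the lower share of the 10 genes was not tested. Levels below are CPM, counts brought to a common library size with TMM factors, which level most genes between libraries, or CPM per kb of exon where genes are compared with each other. The median protein-coding gene stood at 6.06 to 6.10 CPM per kb in the 6 libraries.

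None of the 10 genes passed the test between stiff and soft (0 of 10 by edgeR at an adjusted p under 0.05, against 0.451% of all 31074 genes tested). The largest difference was that of PRKCI. Before adjustment, 1 of the 10 and 9.51% of all genes had an edgeR p under 0.05. Log2 fold changes of stiff over soft ran from −0.38 to 0.14, with 7 below 0 and 3 above. Their median was −0.08, against −0.0048 for all genes. The summed level of the 10 genes was 368, 388 and 392 CPM in soft libraries and 375, 345 and 354 CPM in stiff ones, so the groups overlapped, at a ratio of stiff to soft of 0.935. In bulk vesicle RNA, fewer vesicles from a kind of cell and less RNA per vesicle cannot be told apart. Under scaling by library totals alone, 5 of the 10 passed downwards (PRKCI, SOX2-OT, PIK3CA, TP63 and SOX2), against 13.4% of all genes, while the median of all genes moved to −0.27 and the calls over all genes split into 31 higher and 4163 lower, against 89 and 51.

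**Figure D1:**
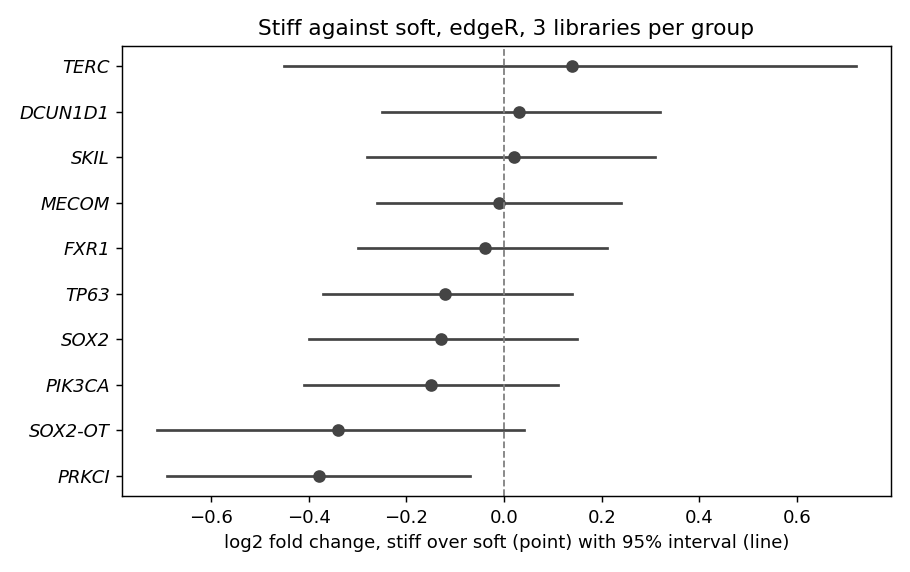
Log2 fold change of stiff over soft for each of the 10 genes (points) with its 95% interval from the edgeR fit (lines), 3 libraries per group. Points run from −0.38 for PRKCI to 0.14 for TERC, and the interval of PRKCI alone does not reach 0 before adjustment over all genes.

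The 2 kinases gave the clearest contrast in how their libraries lay. PRKCI (chromosome 3, 170222365 to 170305981, GRCh38, plus strand) had 100, 88 and 101 counts in soft and 69, 69 and 73 in stiff libraries, or 36.7, 31.9 and 38.1 CPM against 28.4, 25.9 and 27.8. Every stiff library was below every soft one. That was so for 1 of the 10 genes in this direction and for 6.76% of all genes, and in either direction for 1 of 10 and 14.1%. The log2 fold change of PRKCI was −0.38 ± 0.16 (SE, n = 3 per group; 95% interval −0.69 to −0.07; edgeR adjusted p = 0.368), which is 0.769-fold with an interval of 0.620 to 0.954. PIK3CA (179148114 to 179240093, plus strand) had 131, 136 and 115 counts in soft and 101, 108 and 118 in stiff libraries. Scaled, the soft libraries stood at 48.1, 49.3 and 43.4 CPM, and the stiff ones at 41.5, 40.5 and 44.9. The groups overlapped through soft replicate 3 and stiff replicate 3 (log2 fold change −0.15 ± 0.13, interval −0.41 to 0.11, edgeR adjusted p = 0.784). Of the exon bases of PIK3CA, 35.8% lie opposite exons of KCNMB3, a potassium channel subunit gene on the other strand. The library kit was directional, but the strand setting of the counting is not given in the sources used here, so reads from these shared bases cannot be assigned to 1 of the 2 genes.

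The 4 transcription regulators overlapped between the groups. SOX2 (181711924 to 181714436, plus strand, 1 exon) had 103, 107 and 133 counts in soft and 104, 95 and 99 in stiff libraries. Soft replicate 3 was the high library, at 50.1 CPM against 35.7 to 42.8 in the other five (log2 fold change −0.13 ± 0.14, interval −0.40 to 0.15, edgeR adjusted p = 0.839). TP63 (189631416 to 189897279, plus strand) had 126, 149 and 139 counts in soft and 119, 124 and 119 in stiff libraries. These were 50.9 ± 4.10 and 46.9 ± 1.87 CPM (SD, n = 3 each), with soft replicate 1 inside the stiff range (log2 fold change −0.12, interval −0.37 to 0.14). The table holds 1 total per gene, so the p63 forms from its separate promoters cannot be told apart. MECOM (169083499 to 169663618, minus strand) had 135, 167 and 114 counts in soft and 112, 137 and 144 in stiff libraries. Its groups had almost the same mean, 51.0 ± 8.85 and 50.7 ± 4.39 CPM (log2 fold change −0.01, interval −0.26 to 0.24). SKIL (170357678 to 170396835, plus strand) had 89, 100 and 94 counts in soft and 82, 92 and 98 in stiff libraries. Its CPM spread by 5.41% of the mean in soft and 5.28% in stiff, less than the 10.3% and 10.5% that counting error alone gives, and its log2 fold change was 0.02 (interval −0.28 to 0.31).

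DCUN1D1 and FXR1, a cofactor of cullin neddylation and an RNA-binding protein, also overlapped. DCUN1D1 (182938074 to 182985953, minus strand) had 76, 108 and 124 counts in soft and 100, 94 and 105 in stiff libraries. The soft libraries held both its lowest and its highest level, 27.9 and 46.8 CPM, around all 3 stiff ones (log2 fold change 0.03, interval −0.25 to 0.32). FXR1 (180868141 to 180982753, plus strand) had 139, 124 and 138 counts in soft and 131, 134 and 104 in stiff libraries, where stiff replicate 3 was low, at 39.5 CPM against 44.9 to 53.9 (log2 fold change −0.04, interval −0.30 to 0.21).

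The 2 non-coding genes had the fewest counts and the widest intervals. SOX2-OT (180989762 to 181836880, plus strand) had 73, 75 and 60 counts in soft and 64, 52 and 40 in stiff libraries. Stiff replicate 1, at 26.3 CPM, lay within the soft range of 22.6 to 27.2, and the other stiff libraries lay below it at 19.5 and 15.2 (log2 fold change −0.34 ± 0.19, interval −0.71 to 0.04, edgeR adjusted p = 0.592). SOX2 lies within the span of SOX2-OT on the same strand, and in GENCODE 29 the exons of the 2 genes share no base. TERC (169764520 to 169765060, minus strand) had 32, 18 and 21 counts in soft and 31, 13 and 30 in stiff libraries. Both groups held libraries near 12 CPM (11.7 in soft, 12.7 and 11.4 in stiff) and low ones (6.52 and 7.92 in soft, 4.88 in stiff). Its log2 fold change was 0.14 ± 0.30 with an interval of −0.45 to 0.72 (edgeR adjusted p = 0.934), so a change of up to 1.65-fold upwards lay within the interval.

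Per kb of exon, TERC and SOX2 stood well above the rest and SOX2-OT well below. Mean levels over the 6 libraries were 17.0 ± 5.93 CPM per kb for TERC and 16.1 ± 2.11 for SOX2 (SD, n = 6), and the ranges of these neighbours overlapped. TP63 followed at 6.56 ± 0.48, MECOM at 5.59 ± 0.69 and PRKCI at 5.38 ± 0.86. PIK3CA, DCUN1D1 and SKIL lay close together at 4.70 ± 0.37, 4.56 ± 0.75 and 4.49 ± 0.22, and FXR1 at 4.03 ± 0.44. From TP63 down to FXR1 each gene's range overlapped that of the next. The range of SOX2, 14.2 to 19.96 CPM per kb, lay above that of TP63, 6.07 to 7.24. SOX2 was 2.65 times the median protein-coding gene, TP63 1.08 times, and the other coding members 0.664 to 0.920 times.

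SOX2-OT was last, at 0.725 ± 0.152 CPM per kb, and this place depended on the exon length used. GENCODE 29 gives it 31629 bases of exon over many transcripts. Over the 3092 bases of its transcripts paired with RefSeq, its level was 7.42 ± 1.56 CPM per kb, beside 7.49 ± 0.55 for TP63, 7.73 ± 0.95 for MECOM and 16.1 for SOX2 on the same kind of length. The place of FXR1 moved as well. On that kind of length it stood at 5.37 ± 0.59 CPM per kb, above PIK3CA at 4.905, SKIL at 4.85 and DCUN1D1 at 4.74. The annotation the counts were made with is not given in the sources used here. TERC is 541 bases in GENCODE and 451 bases in RefSeq.

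**Figure D2:**
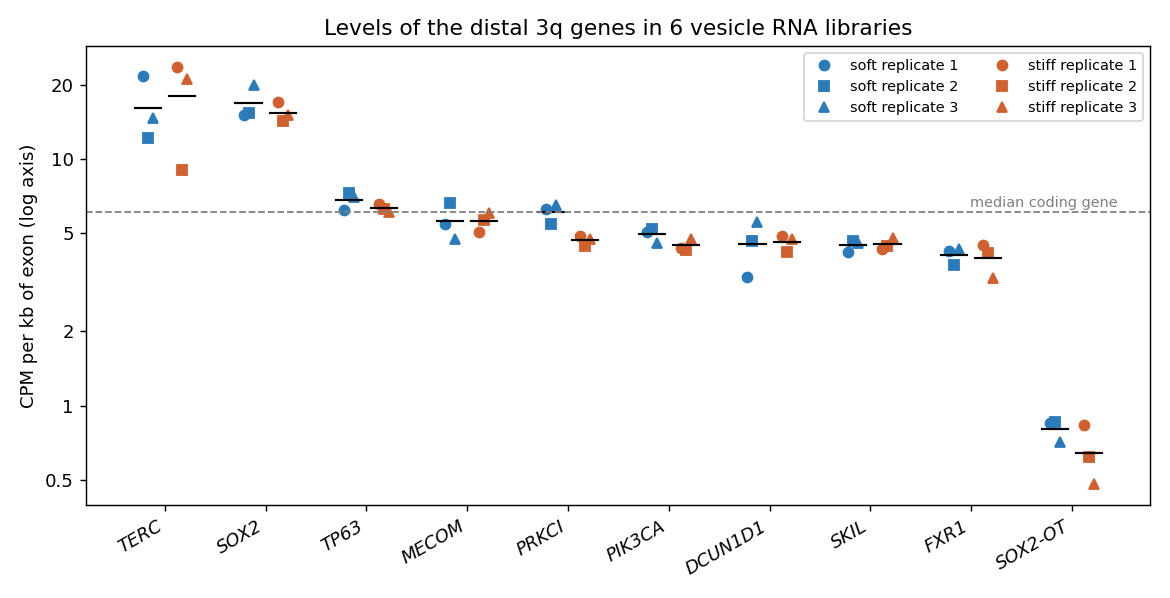
CPM per kb of GENCODE exon (log axis) of each of the 10 genes in each library, blue for soft and orange for stiff, with the replicate as the shape and black bars for group means. TERC and SOX2 lie above the dashed median of protein-coding genes, SOX2-OT lies at 0.481 to 0.859, and soft and stiff are apart only for PRKCI.

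Level per kb went with base composition across the protein-coding genes with a GENCODE position. The median was 3.16 CPM per kb for coding genes of 30% to under 35% GC and 17.4 for those of 65% to under 70%. Across 19239 protein-coding genes Spearman's rank correlation between level per kb and GC content was 0.617 to 0.648 in the 6 libraries, and over the 10 genes here it was 0.685 to 0.842. Genes of 1 library share its depth and preparation, so these are descriptions. The high place of TERC among the 10 went with its GC content of 66.7%. It stood at 0.983 ± 0.347 times the median of coding genes in its 5-point GC band (SD, n = 6 libraries). SOX2 stood at 2.45 ± 0.33 times the median of its own band, with 2.14 as its lowest library. Among the 15 coding genes in the same band between MECOM and TP63 (SOX2 included) the median was 8.87 CPM per kb, and 5 of the other 110 coding genes of the stretch had a higher level than SOX2.

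Most of the other coding genes were also above genes of like GC content, as were most coding genes of the stretch. PIK3CA stood at 1.49 ± 0.10 times its band median, TP63 at 1.48 ± 0.10, PRKCI and DCUN1D1 at 1.44 ± 0.22 and 1.44 ± 0.23, SKIL at 1.42 ± 0.07 and MECOM at 1.262 ± 0.155. The place of PIK3CA depended on a band edge, since its GC content of 34.8% lay just under 35%. The next band, 35% to under 40%, had a median of 3.73 CPM per kb against 3.16 in its own. FXR1 stood at 1.08 ± 0.12, with its lowest library at 0.895. So 7 of 8 coding members were above their band in every library, with the union of GENCODE exons as length. Over exons paired with RefSeq, FXR1 stood above PIK3CA, SKIL and DCUN1D1, and band medians were not computed on that length. Of all 111 coding genes of the stretch between MECOM and TP63, 64 (57.7%) were above their band median in every library, near the 57.0% on the rest of the long arm, with 7.0% on the short arm and 34.1% on the other autosomes. By mean level these shares were 75.7%, 76.0%, 12.1% and 52.2%. Within the stretch itself, members included, the band from 30% to under 35% GC had a median of 4.55 CPM per kb. PIK3CA, DCUN1D1 and SKIL stood at 4.70, 4.56 and 4.49 beside it. From 35% to under 40% the median was 5.21, with PRKCI at 5.38 and FXR1 at 4.03. From 40% to under 45% it was 5.44, with MECOM at 5.59 and TP63 at 6.56.

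**Figure D3:**
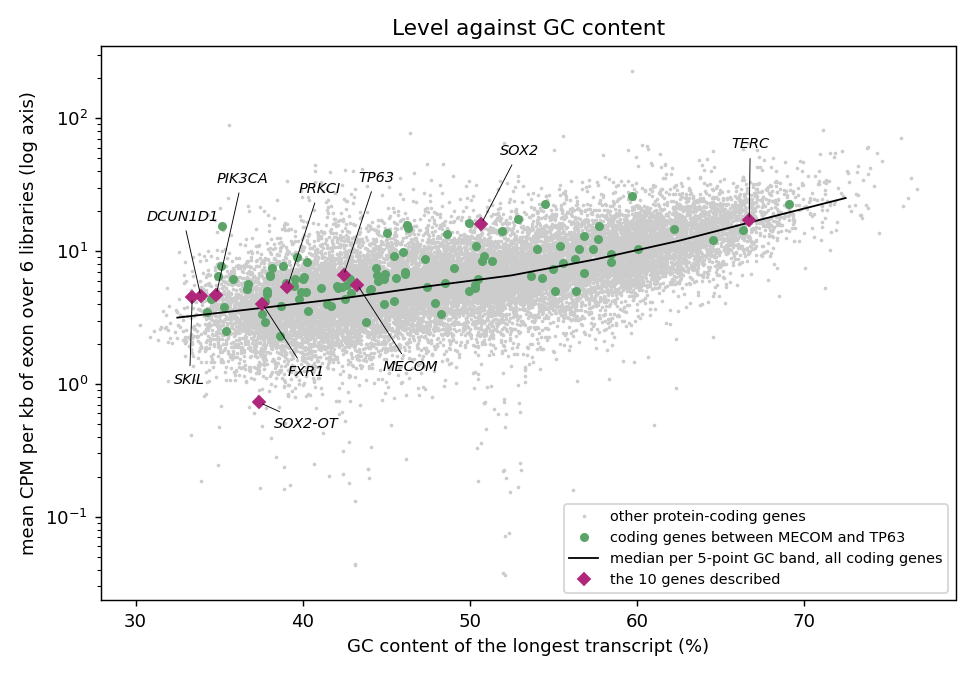
Mean CPM per kb of exon over the 6 libraries (log axis) against GC content of the longest transcript, for protein-coding genes with counts (grey), the 111 coding genes between MECOM and TP63 (green) and the 10 genes described (diamonds). The black line joins band medians. SOX2 lies well above it, TERC on it, FXR1 close to it and SOX2-OT below it.

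The stretch was then set against the rest of its chromosome, to see whether its level set it apart. It runs from 169083499 to 189897279 and holds 173 genes of the table with a GENCODE position. In each library the median coding gene of the stretch was divided by that of the other 930 coding genes of chromosome 3. The soft libraries gave ratios of 1.27, 1.29 and 1.22, and the stiff ones 1.28, 1.27 and 1.14, so all 6 were above 1. Means were 1.262 ± 0.037 and 1.230 ± 0.075 (SD, n = 3 each; exact permutation p = 0.7, two-sided, smallest possible 0.1). The excess was over the short arm and not over the other long-arm genes. Against the short arm the ratio was 1.61 ± 0.08 over the 6 libraries, and against the 442 remaining coding genes of the long arm it was 0.981 ± 0.045.

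The 2 arms of the chromosome stood at separate levels. In windows of 10 Mb the median coding gene stood at 2.79 to 4.14 CPM per kb from the tip of the short arm to 90 Mb, and at 5.29 to 7.57 from there to the end of the long arm. No protein-coding gene lies between 89482134 and 93873033. The windows from 160 to 170 Mb, 170 to 180 Mb and 180 to 190 Mb, which hold the 10 genes, had medians of 6.29, 5.33 and 6.85, within the range of the other long-arm windows. Median GC content of coding genes was 49.0% on the short arm, 42.8% on the rest of the long arm and 44.5% in the stretch.

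Within each of 3 bands of GC content the short arm was the lowest of the 4 regions, and the stretch, averaged over the 6 libraries, lay above the other autosomes. Among coding genes under 40% GC, medians were 5.01 ± 0.29 CPM per kb in the stretch (32 genes), 5.14 ± 0.19 on the rest of the long arm, 2.55 ± 0.14 on the short arm and 3.70 ± 0.06 on the other autosomes (SD, n = 6 libraries). From 40% to under 50% they were 5.90, 6.04, 3.12 and 4.99 in the same order, and at 50% and over 9.88, 9.62, 5.26 and 9.20. Over all GC contents the stretch was level with the other autosomes, at a ratio of 0.982 ± 0.027, while in the 3 bands that ratio was 1.35, 1.18 and 1.07. In the band of 50% and over, that ratio was 1.15 ± 0.05 for soft and 0.995 ± 0.038 for stiff libraries, which did not overlap. Of 16 such ratios to 4 regions compared between the groups, 6 did not overlap, all higher in soft (exact permutation p = 0.1, two-sided, the smallest possible; 0.267 after Benjamini-Hochberg adjustment over the 16). These 6 are not separate observations. They include every ratio of the band of 50% and over, which share the same 34 genes of the stretch. The rest of chromosome 3, 1 of the 4 regions, also holds the short arm and the rest of the long arm. Among coding genes of 35% to 45% GC the stretch stood at 5.35 CPM per kb, below chromosomes 9 and 20 (5.90 and 5.68) and above the other autosomes taken whole, of which chromosome 7 was next at 5.17 and chromosome 4 was lowest at 2.68.

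**Figure D4:**
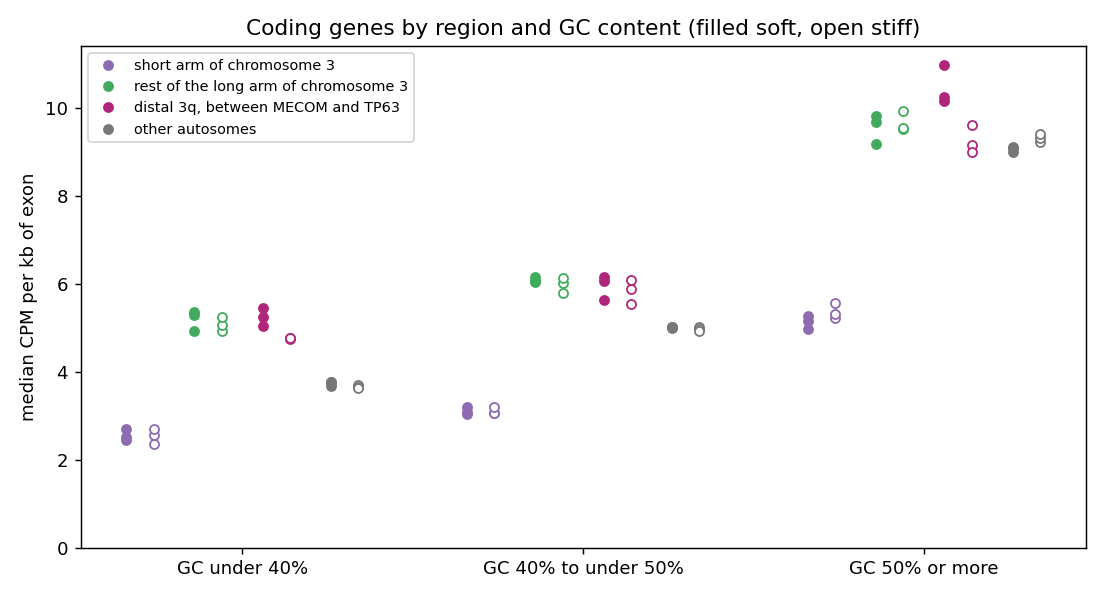
Median CPM per kb of exon of coding genes in 4 regions within 3 bands of GC content, 1 point per library, filled for soft and open for stiff. The stretch between MECOM and TP63 lies beside the rest of the long arm in each band and above the short arm in all 6 libraries.

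Genes known for expression in other tissues were counted in all 6 libraries within the same stretch. Each library held counts for 37213 to 37366 of all 38167 genes. A set of 10 was picked after the level of the stretch had been seen. It holds AHSG, FETUB, HRG and KNG1, which encode plasma proteins made in liver, SLC2A2, a glucose transporter of liver and islet cells, ADIPOQ of fat cells, the hormone gene SST, the receptor gene GHSR, NLGN1 of neurons and CRYGS of the eye lens. Their median was 6.23 ± 0.92 CPM per kb over the 6 libraries, beside 4.97 ± 0.34 for the 8 coding members, and it was the higher of the 2 in all 6 libraries (4.94 to 7.36 against 4.44 to 5.32). The median GC content of the 2 sets was 44.4% and 38.3%. AHSG had 48, 46 and 45 counts in soft and 29, 46 and 31 in stiff libraries, or 6.53 ± 1.16 CPM per kb, next to 6.56 for TP63. GHSR, the most abundant coding gene of the stretch per kb, stood at 26.2 ± 2.29 CPM per kb and SST at 22.8 ± 3.74, both above SOX2. EIF4A2, a translation factor gene made in most cells, was the lowest, at 2.29 ± 0.33 with 31 to 46 counts, followed by KCNMB3 at 2.50 ± 0.54 and CRYGS at 2.91 ± 1.04. CAMK2N2, an inhibitor of a calmodulin-dependent kinase, was next below SST at 22.6 ± 5.19.

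Markers of squamous epithelium, the labelled cell type, were present at levels like those of leukocyte markers. The 10 squamous markers had a median of 7.38 ± 1.12 CPM per kb at a median GC content of 54.9%, with KRT5 at 7.48 and DSG3 at 3.12. The 5 leukocyte markers had 7.98 ± 1.81 at 55.4% GC, the 4 endothelial ones 5.68 ± 0.49 at 51.9% and the 6 fibroblast ones 3.39 ± 0.18 at 42.3%. No marker of these lists was at 0, while each library held counts for 37213 to 37366 of all 38167 genes. Summed levels of the squamous list were 208 to 222 CPM in soft and 238 to 265 in stiff libraries, while those of the fibroblast, endothelial and leukocyte lists overlapped. Of the 10 squamous markers 1 passed the edgeR test upwards, KRT14, against 0.286% of all genes. The groups did not overlap for 5, all higher in stiff, against 7.38% of all genes. Means were higher in stiff for 7 and lower for 3, which were SFN (24.7 CPM in soft, 21.3 in stiff), DSG3 (17.9 and 16.5) and EPCAM (12.7 and 11.9). Groups also did not overlap for 1 of 4 endothelial markers (higher in stiff) and 1 of 5 leukocyte markers (lower in stiff). For the 6 fibroblast markers there were 0. Over all genes groups did not overlap for 14.1% in either direction. The part of these cell types in the levels of the 10 genes was not tested.

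Partners of the 10 genes gave 1 call in 8 lists. In the list of SOX and p63 relatives, squamous partners and targets, 1 of 20 genes passed upwards and 0 downwards by edgeR, against 0.286% and 0.164% of all genes, and 4 of 20 had an unadjusted p under 0.05, against 9.51%. The median log2 fold change was 0.15, and 15 of 20 were above 0, against 49.1% of all genes. The gene that passed was KRT14, the basal keratin that p63 activates, with 50, 69 and 49 counts in soft and 85, 103 and 70 in stiff libraries (log2 fold change 0.69 ± 0.17, edgeR adjusted p = 0.0281). The list shares KRT14, KRT5, DSG3 and PERP with the squamous markers above, so its call is the same one. TP63 itself had a log2 fold change of −0.12. Groups did not overlap for 6 of these 20 genes (30%), 5 higher and 1 lower, against 14.1% of all genes.

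The kinase partners gave no call by edgeR, against 0.451% of all genes. The counts were 0 of 20 for phosphoinositide 3-kinase signalling and 0 of 11 for atypical protein kinase C and polarity. In each list 2 genes had an unadjusted edgeR p under 0.05, against 9.51% of all genes. The median log2 fold changes of the 2 lists were 0.05 and −0.02. PIK3R3, a regulatory subunit, had 92, 105 and 107 counts in soft and 70, 65 and 73 in stiff libraries (log2 fold change −0.47 ± 0.16, adjusted p = 0.190). PIK3R2, another regulatory subunit, had the highest value of that list at 0.28 ± 0.11 (adjusted p = 0.293). Groups did not overlap for 25% of the phosphoinositide 3-kinase list, 3 genes higher and 2 lower in stiff, against 14.1% of all genes. ECT2, which encodes a partner of PRKCI in cell polarity and growth, lies in the same stretch of 3q (172750682 to 172821474). It had 117, 110 and 102 counts in soft and 83, 77 and 80 in stiff libraries, groups that did not overlap, as for PRKCI, with a log2 fold change of −0.38 ± 0.15 (edgeR adjusted p = 0.314). PARD6G, a polarity adaptor, had 66, 57 and 63 counts in soft and 68, 91 and 79 in stiff libraries, and its groups did not overlap in the other direction (log2 fold change 0.43 ± 0.17, adjusted p = 0.339). These were the 2 of 11 genes of that list without overlap (18.2%), against 14.1% of all genes.

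Lists around the other genes also had 0 calls by edgeR, against 0.451% of all genes. The values below are log2 fold changes of stiff over soft. For telomerase and shelterin 12 of 13 genes were tested, with a median of −0.03 and values from −0.49 for TINF2 to 0.37 for POT1, both shelterin proteins. TGF-beta signalling around SKIL had 10 genes with a median of 0.11, from −0.25 for RNF111, a ubiquitin ligase, to 0.25 for SMAD7, the inhibitory SMAD. MECOM relatives and corepressors had 9 genes with a median of 0.11, from −0.01 for SUV39H1, a histone methyltransferase, to 0.17 for PRDM16, the closest relative of MECOM. Cullin neddylation had 18 genes with a median of −0.06, from −0.27 for CUL2, a cullin, to 0.26 for RNF7, a RING protein of cullin ligases. FXR1 relatives and partners had 6 genes with a median of 0.14, from −0.03 for NUFIP1 to 0.19 for FXR2. At an unadjusted edgeR p under 0.05 these 5 lists had 2, 0, 0, 0 and 0 genes, against 9.51% of all genes. Groups did not overlap for 33.3%, 10%, 0%, 5.56% and 16.7% of their genes in the same order, against 14.1% of all genes. For telomerase and shelterin these were 2 genes higher and 2 lower in stiff.

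Neighbours of the 10 genes in the stretch did not pass either. Of 163 other genes 136 were tested and 0 were called by edgeR, against 0.451% of all genes. At an unadjusted edgeR p under 0.05 were 13 of the 136, against 9.51% of all genes. Their median log2 fold change was −0.06, with 58.8% below 0 against 50.9% of all genes. Groups did not overlap for 13.2% of them, near the 14.1% of all genes. By direction, 5 genes were higher and 13 lower in stiff, while over all genes 7.38% were higher and 6.76% lower.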

How the data were processed

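The authors deposited raw counts of reads per gene symbol in 1 table, with no normalization. The submitters' processing notes name Trim Galore 0.4.2, cutadapt 1.9.1, FastQC 0.11.7, STAR 2.6.1e, featureCounts 1.6.2, DESeq2 1.26.0 and hg38. The annotation, the strand setting and the handling of shared reads are not given in the sources used here. Columns were matched to libraries by the labels' descriptions; replicate numbers are those of the titles, since 2 stiff columns carry the same number.

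The test of stiff against soft was run in edgeR 4.0.16 under R 4.3.3 with TMM, filterByExpr (31074 genes kept), robust quasi-likelihood F tests, two-sided, Benjamini-Hochberg over all genes tested, threshold 0.05. Limma 3.58.1 (voom) and DESeq2 1.42.0 were alternatives. On simulated counts for 30649 genes of this comparison, recovery was 19.4% for a planted 1.5-fold change, 79.1% for 2-fold and 100% for 4-fold. Counts were drawn with a single dispersion for all genes, and changes were planted only in genes above a set expected count. TERC, at 13 to 32 counts, lay below it, so these rates do not cover TERC. Libraries of one group varied beyond counting noise (chi-square per degree of freedom 1.53 to 3.86).

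Exon length (union of exons), GC content of the longest transcript and coordinates came from GENCODE 29 (GRCh38), matched for 26153 (68.5%) of 38167 genes and for all 10 described. Printed sequences are from GENCODE 29 transcripts. The labels' protocols name no molecular identifiers, so PCR copies may be counted and counting errors cover counting alone.

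The 10 genes and all lists were chosen with earlier results of these data known. Named beside the 10 genes were, per list, genes past the threshold, else its highest and lowest fold change; in the stretch, genes past the threshold and the 3 highest and 3 lowest levels per kb; and the 3 genes whose log2 CPM correlated best with the summed level.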

Additional observations from a re-analysis of the deposited data

How the results depend on the processing

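Over 14 alternatives that gave the 10 genes an adjusted p, 0 of them were called except under library totals alone, where 5 were called downwards, with log2 fold changes of −0.65 for PRKCI (edgeR adjusted p = 0.00389), −0.60 for SOX2-OT (0.0245), −0.42 for PIK3CA (0.0287), −0.39 for TP63 (0.0359) and −0.39 for SOX2 (0.0493); in that fit 4194 genes were called in all. In the other 13 fits PRKCI stayed between −0.45 and −0.32, with 0.361 as its lowest adjusted p, and SOX2-OT between −0.55 and −0.16; SOX2, TERC, MECOM, SKIL, DCUN1D1 and FXR1 took both signs. The count over all genes, 140, became 67 with DESeq2 and its filter on mean count, which left all 10 genes without an adjusted p, 43 without that filter and 54 with a GC content offset, which tested 22212 genes. With that offset 25 genes were higher and 29 lower in stiff, against 89 and 51 in the main fit. The call of KRT14 was not followed over the alternatives. Without 1 replicate at a time the count over all genes was 60 to 136, soft replicate 2 giving 77 when left out and stiff replicates 1, 2 and 3 giving 85, 60 and 75, over fewer libraries. With the replicate number as a block it was 173, with 0 of the 10 genes called and a ratio of summed levels of 0.935. Same-numbered libraries did not deviate together (correlations −0.0036 to 0.0035), and the block changed no call among the 10. The ratio of summed levels was 0.776 under library totals alone and 0.912 to 0.952 without 1 replicate at a time. The ratio of the stretch to the rest of chromosome 3, 1.25 over the 6 libraries, was 1.32 with the longest transcript as length, 1.61 against the short arm alone and 0.982 against the other autosomes, whose coding genes have a median GC content of 49.2% against 44.5%; chosen after the data were seen, it was 1.27 without the 10 genes and 1.30 over exons paired with RefSeq. TERC, at 13 to 32 counts, spread by 31.0% in soft and 43.5% in stiff libraries, beyond its counting errors of 20.6% and 20.1%.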

Other observations

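Over the 6 libraries, the genes whose log2 CPM ran closest to the log2 of the summed level of the 10 genes were APOBEC3A (Pearson r = 0.996, 14 to 27 counts), TRMT12 (0.996, 16 to 39 counts) and LOC107986356 (0.991, 32 to 60 counts). Of 31064 genes compared, 62 had r over 0.95. With 6 libraries these values are a description.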
